A study of Mus musculus with 96 samples.

Results

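Candesartan was compared with vehicle in the thalamus of brain-injured mice at 3 days post-injury (dpi). The 4 libraries of injured, candesartan-treated mice (TBI + CD) were set against the 4 libraries of injured, vehicle-treated mice (TBI + VH) over every gene of the 3 dpi count table, so the comparison rests on 8 of the 96 mRNA-seq libraries of the series. The mice were adult male C57BL/6 animals 8 to 10 weeks old. Both groups received a controlled cortical impact (CCI), a blow of a driven tip to the bared cortical surface, over the left hemisphere. The drug (0.1 mg/kg) or its carbonate-buffered saline vehicle was given intraperitoneally at 6, 24 and 48 h after the impact, and the thalamus of the injured side was dissected from perfused brains at 3 dpi. The 4 Sham + VH and 4 Sham + CD thalamus libraries came from mice with a scalp incision but no opening of the skull, on the same injection schedule, and they entered the same fit. The libraries of each group were picked for their RNA quality. The labels do not say whether each library is 1 mouse, so p-values measure the spread between these libraries.

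Candesartan blocks the angiotensin II type 1 (AT1) receptor. Angiotensin II is cut from angiotensinogen, which astrocytes make in the brain, by renin and angiotensin-converting enzyme. In rodents the AT1 receptor is encoded by Agtr1a and Agtr1b, while the AT2 receptor (Agtr2) and the Mas receptor (Mas1) are generally held to act against it. Several blockers of this class can also activate the nuclear receptor PPARγ. The thalamus lies beneath the struck cortex and exchanges axons with it, and injury of the cortex is known to be followed by microglial and astrocytic reactions in the thalamic nuclei that project there.

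No gene passed the test between TBI + CD and TBI + VH. Of 16762 genes tested with edgeR, 0 (0%) passed a false discovery rate (FDR) under 0.05 with an absolute log2 fold change above 0.32, and the smallest FDR was 0.9998. At an unadjusted p under 0.05, 168 genes (1%) were higher and 176 (1.05%) lower in TBI + CD, together 344 genes or 2.05%, where evenly spread p-values would give 5%. Without TBI + VH replicate 1 that count was 988 of 16932 genes, with 0 calls. DESeq2 on the same libraries also called 0 genes and gave 325 of 23729 genes at an unadjusted p under 0.05. All 4 TBI + CD libraries lay above all 4 TBI + VH libraries for 114 genes (0.68%) and below them for 120 (0.716%).

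The width of the intervals shows what sizes of difference these 8 libraries leave possible. Throughout, a log2 fold change is TBI + CD minus TBI + VH, positive where candesartan-treated mice were higher, and is given with its standard error (SE). The median SE over the genes tested was 0.10 on the log2 scale. The 95% interval of the fold change lay within -1 to 1, that is within a doubling either way, for 15486 genes (92.4%), and within -0.5 to 0.5 for 12337 (73.6%). Among the 14981 genes that averaged 1 CPM or more (the count scaled to a common library total), these shares were 97.7% and 82.3%. Single genes below are named by an unadjusted p, by a list or by groups that do not overlap, and none of them is a differentially expressed gene.

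**Figure D1:**
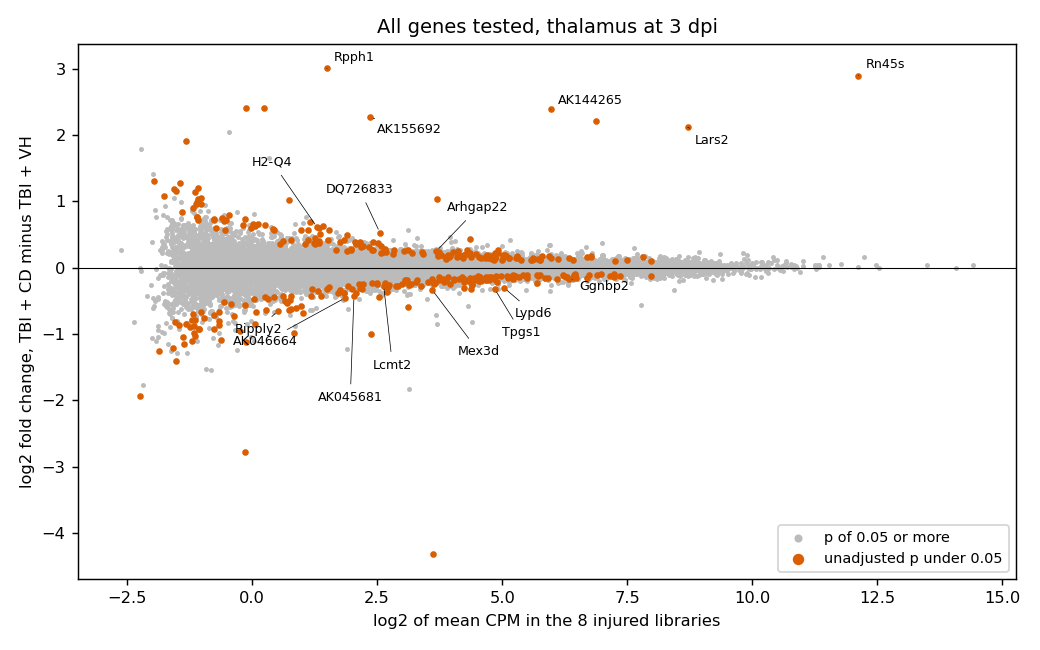
Each point is a gene tested in the thalamus at 3 dpi, with the log2 of its mean CPM in the 8 injured libraries against its log2 fold change of TBI + CD over TBI + VH. Genes with an unadjusted edgeR p under 0.05 are orange, and the 8 with the smallest p in each direction carry their names. The cloud is centred on 0, Rn45s, Rpph1, AK144265, AK155692 and Lars2 lie above 2, and no gene passed the FDR threshold.

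The total counts were 21247113 to 27166527 in TBI + VH and 17440742 to 23183935 in TBI + CD, a difference that did not pass a 2-sided exact permutation test (p = 0.114, smallest possible 0.0286). The dissected tissue carried the markers of thalamus in each of the 8 libraries. Slc17a6, the glutamate transporter of subcortical excitatory neurons, stood at 424, 548, 623 and 513 CPM in TBI + VH replicates 1 to 4 and at 374, 559, 553 and 519.7 in TBI + CD. Prkcd, a protein kinase C of thalamic relay cells, ranged from 371 to 863 in TBI + VH and from 613 to 892 in TBI + CD. Tcf7l2, the transcription factor that defines thalamic neurons, ranged from 216 to 313 and from 199 to 292. The groups overlapped for all 3 markers.

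Markers of tissue next to the thalamus differed widely between the libraries, and how the dissections differed was not tested. Pou4f1, a transcription factor of the habenula, stood at 27.9, 20.1, 0.369 and 0.843 CPM in TBI + VH and at 15.4, 21.9, 18.8 and 0.3704 in TBI + CD, so that 3 of the 8 libraries held almost none. Hcrt, the orexin precursor made only in the lateral hypothalamus, stood at 2.96, 55.6, 38.5 and 102 CPM in TBI + VH and at 80.3, 10.7, 0.0432 and 68.1 in TBI + CD. The dopamine transporter gene Slc6a3, a midbrain marker, stood at 59.6, 6.901, 0.812 and 32.7 CPM and 36.3, 6.76, 6.65 and 33.6 CPM. The groups overlapped for each of these markers. TBI + CD replicate 3 was the extreme case: 32 genes were more than 2-fold lower there than in any of the other 7 libraries, among them the hypothalamic genes Avp, Oxt, Crh, Hcrt, Pmch and Nkx2-1. Among the 8 sets of genes in the plot of levels by library, those of the habenula and of hypothalamic and midbrain neurons spread most. The habenula list's level was 5.55, 5.33, 2.61 and 2.76 mean log2 CPM in TBI + VH and 4.999, 5.497, 5.24 and 2.32 in TBI + CD, and that of the choroid plexus list 2.17, 2.19, 1.27 and 1.15 and 2.06, 1.83, 1.85 and 0.8696. Both lists were lowest in TBI + VH replicates 3 and 4 and TBI + CD replicate 4.

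**Figure D2:**
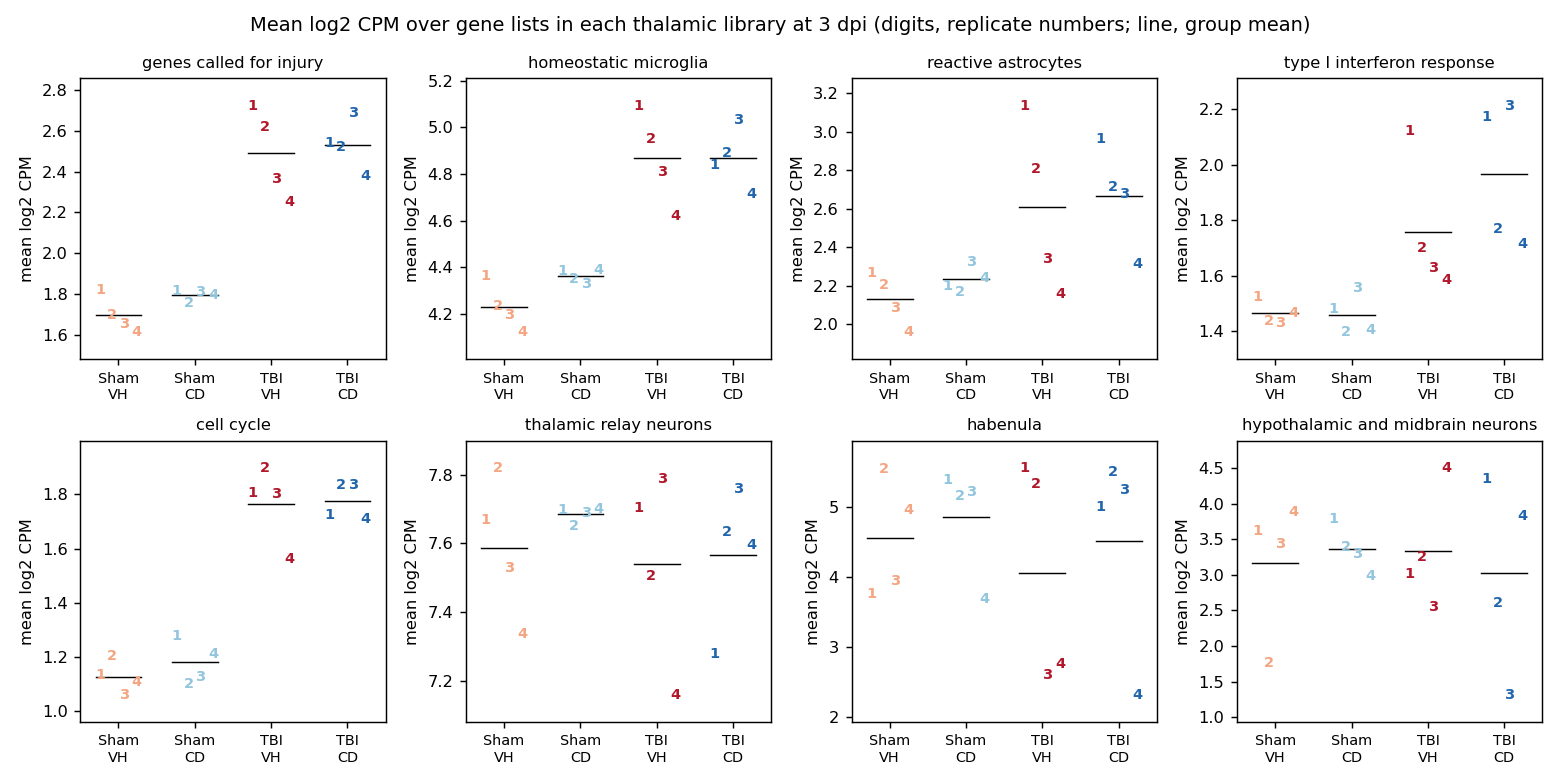
Each digit is 1 library, named by its replicate number, at its mean log2 CPM over the tested members of a gene list, with a line at the mean of each sham and injured group. The habenula level falls to 2.32 in TBI + CD replicate 4 and lies far above that in the other 3 TBI + CD libraries, whereas the homeostatic microglia levels lie within 4.62 to 5.09 in all 8 injured libraries.

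TBI + CD replicate 1 stood apart through ribosomal RNA. Rn45s, the 45S precursor of ribosomal RNA, took 2.54% of its counts and 0.337% in TBI + CD replicate 2, while the median over all 96 libraries was 0.0512%. In CPM, Rn45s stood at 661, 990.2, 1255 and 1320 in TBI + VH and at 26001, 3352, 649.6 and 1441 in TBI + CD, and TBI + CD replicates 3 and 4 lay just below and just above the TBI + VH range. The fold change of 2.89 (SE 0.84, 95% interval 1.12 to 4.67) fell to 0.77 without that library and to -0.020 without both. The libraries were made from polyadenylated RNA.

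Other genes followed the same library. Lars2, the mitochondrial leucyl-tRNA synthetase gene (chr9:123366927-123462666), stood at 133, 145, 173 and 177 CPM in TBI + VH and at 2141, 273, 123 and 185 in TBI + CD. Its fold change of 2.12 became 0.30 without TBI + CD replicate 1 and -0.031 without replicates 1 and 2. Rpph1, the RNA component of ribonuclease P (chr14:50807449-50807767), moved from 3.00 to 1.15 and 0.14, and AK144265 and AK155692, transcripts with no match by symbol in the annotation, moved from 2.39 to -0.17 and from 2.27 to 0.62 when both libraries were left out. These 5 genes make up most of the 8 genes with the smallest p among those higher in TBI + CD. Their rank rested on 1 or 2 libraries, and 10 genes were more than 2-fold higher in TBI + CD replicate 1 than in any of the other 7 libraries.

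**Figure D3:**
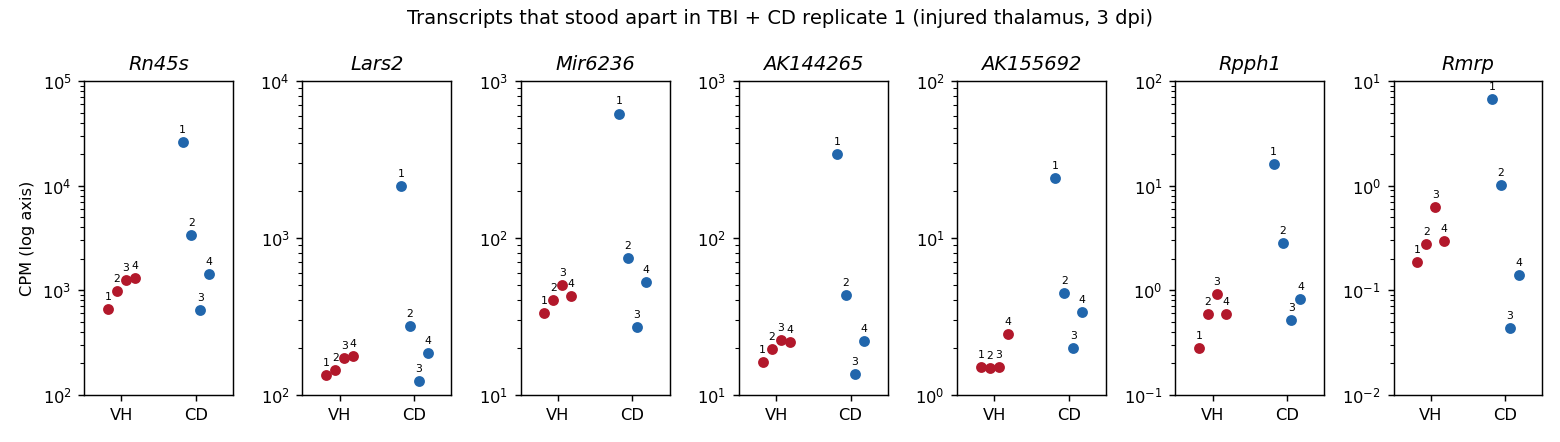
CPM on a log axis of Rn45s and 6 genes that were high with it, 1 point for each of the 8 injured libraries, with its replicate number, in TBI + VH (VH) and TBI + CD (CD). TBI + CD replicate 1 lies far above every other library for each gene shown, at 26001 CPM for Rn45s and 2141 CPM for Lars2.

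Among genes that no single library set, some of the smallest p-values went with small differences and others with larger ones. Mex3d (chr10:80380355-80387659), which encodes an RNA-binding protein, stood at 13.4, 13.7, 13.8 and 13.3 CPM in TBI + VH and at 9.37, 11.4, 10.4 and 11.7 in TBI + CD. The groups did not overlap, and the log2 fold change was -0.34 (SE 0.079, 95% interval -0.50 to -0.17). Ggnbp2 (chr11:84832361-84870817), a gametogenetin-binding protein gene, stood at 84.4, 82.9, 88.2 and 84.6 CPM in TBI + VH and at 74.2, 79.2, 76.9 and 72.1 in TBI + CD. This too was lower in each TBI + CD library, by 0.17 on the log2 scale (SE 0.042, 95% interval -0.26 to -0.080).

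Ripply2 (chr9:87015537-87019917), a developmental repressor of transcription, stood at 1.596, 1.44, 2.21 and 1.73 CPM in TBI + VH and at 1.11, 1.18, 0.906 and 1.25 in TBI + CD, with a fold change of -0.65 (SE 0.19). Lcmt2 (chr2:121128307-121140653), a tRNA-modifying methyltransferase gene, stood at 6.48, 6.502, 6.902 and 7.21 CPM and 5.62, 6.01, 5.35 and 5.46 CPM. Neither gene had overlapping groups. Lypd6 (chr2:50066429-50193569), a modulator of nicotinic receptors, had a fold change of -0.31 (SE 0.078), and Tpgs1 (chr10:79669369-79676127), a subunit of the tubulin polyglutamylase, one of -0.32 (SE 0.093). The groups overlapped for both, with Lypd6 at 31.5, 41.05, 35.8 and 37.3 CPM in TBI + VH and 28.7, 27.3, 31.6 and 30.2 in TBI + CD. The unmatched transcripts AK046664 and AK045681, with fold changes of -0.46 and -0.43, complete the 8 genes with the smallest p that were lower in TBI + CD.

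The higher genes that Rn45s-rich libraries did not set were 3. Arhgap22 (chr14:33214026-33369934), a GTPase-activating protein for Rac, stood at 12.7, 11.6, 11.7 and 11 CPM in TBI + VH and at 14, 14.1, 13.6 and 14.1 in TBI + CD. The groups did not overlap, and the fold change was 0.25 (SE 0.073, 95% interval 0.094 to 0.40). The unmatched transcript DQ726833 stood at 4.27, 4.79, 4.36 and 5.82 CPM in TBI + VH and at 6.09, 6.44, 6.34 and 8.84 in TBI + CD, with a fold change of 0.53 (SE 0.13). H2-Q4 (chr17:35379617-35385290), a class Ib histocompatibility gene with close relatives in the same cluster, stood at 2.44, 2.23, 1.55 and 1.56 CPM and 3.34, 2.201, 3.67 and 2.64 CPM, and its groups overlapped. The plot of these genes by library shows their values.

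**Figure D4:**
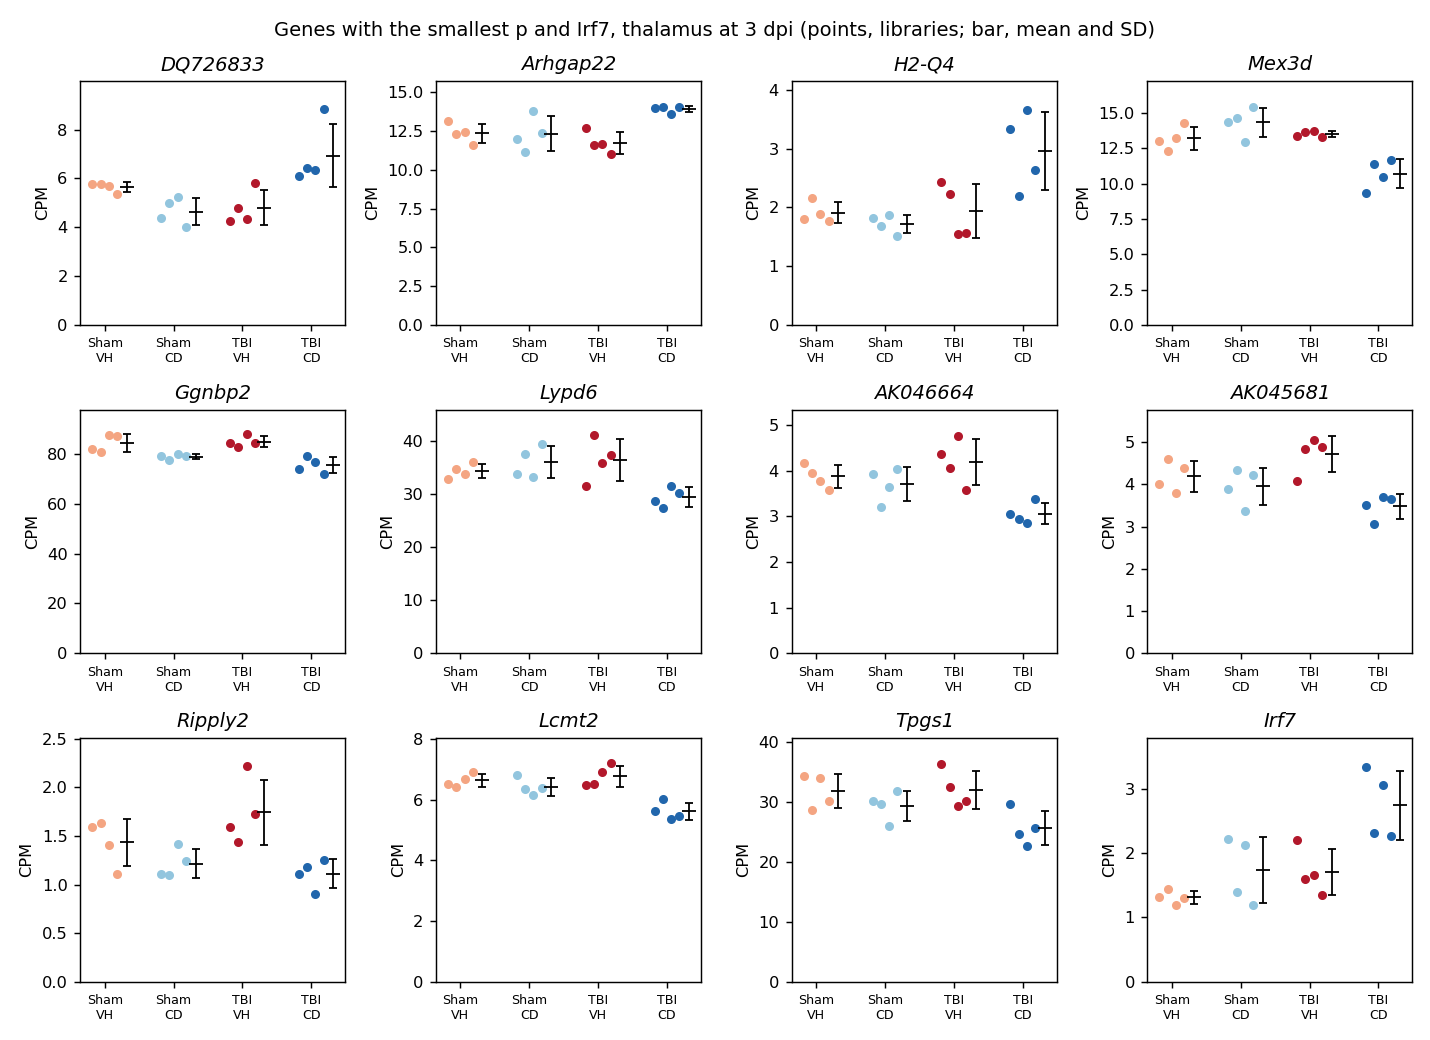
CPM in each of the 16 thalamus libraries by group, 1 panel per gene, with the mean and SD of each group, for Irf7 and for the genes with the smallest unadjusted p other than those of the Rn45s-rich libraries. Mex3d, Ggnbp2 and Arhgap22 are separated by group while Lypd6, Tpgs1 and H2-Q4 overlap.

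Some large fold changes belonged to genes with on or off counts or, for Xlr4a, with low and uneven counts. Tuba1c, an α-tubulin gene, stood at 41.7, 1.28, 49.2 and 0.759 CPM in TBI + VH and at 0.82, 1.66, 1.08 and 1.06 in TBI + CD, which gave -4.32 (SE 1.58). Only 2 of the 4 TBI + VH libraries were high, and the sham libraries split in the same manner, at 49.6, 0.875, 3.61 and 46.9 in Sham + VH and 4.07, 0.76, 41.7 and 42.9 in Sham + CD. Over all 96 libraries Tuba1c reached 20 CPM in 23 and stayed under 10 CPM in 71. Tuba1b encodes a nearly identical protein, and the sum of both genes was 217.3 ± 22.3 CPM in TBI + VH and 224.1 ± 21.8 in TBI + CD (SD, n = 4). How reads shared between copies were counted is not given in the sources used here, and its part in these values was not tested. Xlr4a, of a multicopy X-linked family, stood at 3.71, 1.64, 0.886 and 0.126 CPM in TBI + VH and 0.293, 0.161, 0.388 and 0.0463 in TBI + CD. 0610010B08Rik stood at 11.9 to 17.8 CPM in TBI + VH and at 0.234, 0.0537, 14.6 and 0.0926 in TBI + CD.

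Genes of the system that candesartan acts on gave no call. Of the 19 renin-angiotensin genes listed, 15 passed the filter on low counts, their median fold change was -0.020 beside -0.00090 over all genes tested, and 1 was lower and 0 higher at an unadjusted p under 0.05, beside 1.05% and 1% of all genes. Agtr1a (chr13:30336441-30382867), the main AT1 receptor gene, stood at 0, 0.558, 0.664 and 1.096 CPM in TBI + VH and at 1.17, 0.429, 0.173 and 0.185 in TBI + CD. One library of TBI + VH held no count, where 3 counts would be 0.141 CPM. The fold change was -0.35 with a 95% interval of -1.76 to 1.07, and without TBI + CD replicate 1 it was -1.20, so the direction and size rest on few counts. Agtr1b ranged from 0.126 to 0.332 CPM in TBI + VH and from 0.107 to 0.3704 in TBI + CD and was too low to be tested, as was Mas1.

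Agtr2, the AT2 receptor gene, stood at 1.55, 1.197, 1.25 and 1.98 CPM in TBI + VH and at 1.76, 1.61, 1.38 and 1.57 in TBI + CD, a fold change of 0.079 (SE 0.26). Angiotensinogen (Agt, chr8:124556534-124569706) stood at 286, 307, 247 and 338 CPM and 363, 305, 293 and 322 CPM, and its groups overlapped with a fold change of 0.12 (SE 0.084). The difference between TBI + CD and TBI + VH exceeded that between the sham groups by 0.34 for Agt (SE 0.12, not called). The converting enzyme gene Ace had a fold change of -0.090 (SE 0.23), at 22.9, 32.7, 26.3 and 42.5 CPM in TBI + VH and 33.2, 26.2, 25.2 and 32.4 in TBI + CD. The peptidase gene Nln, the member with the unadjusted p under 0.05, had -0.17 (SE 0.068). The more abundant members Atp6ap2, the prorenin receptor, Thop1 and Prep, both peptidases, had -0.020 (SE 0.080), 0.050 (SE 0.064) and 0.0095 (SE 0.085).

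For PPAR receptors and their targets, 19 of 20 genes were tested, the median was 0.0095 and 0 had an unadjusted edgeR p under 0.05. Each of the 19 intervals lay within -1 to 1. Pparg stood at 0.892, 0.838, 0.812 and 0.801 CPM in TBI + VH and at 0.703, 0.483, 0.993 and 0.833 in TBI + CD, with -0.13 (SE 0.32). The targets Abca1, a cholesterol exporter, and Scd1, a fatty acid desaturase, had -0.048 (SE 0.085) and -0.0022 (SE 0.063). Ppargc1a, the coactivator of mitochondrial biogenesis, had 0.14 (SE 0.095).

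Genes that the injury itself raised were then followed in both arms. They were chosen on the mean of both injured groups minus the mean of both sham groups, a quantity that does not use the difference between TBI + CD and TBI + VH. By that test in edgeR 152 genes rose (0.907%) and 0 fell (0%), while DESeq2, over 23729 genes, called 193 up and 10 down. The 152 hold microglial, complement, astrocytic and cell cycle genes. Their median difference of TBI + CD from TBI + VH was 0.036, with the middle of the distribution between -0.058 and 0.11, and the extremes at -0.44 and 0.65. The 95% interval lay within -1 to 1 for 144 of them and within -0.5 to 0.5 for 91. The rise from sham had a median of 0.69 with vehicle and 0.66 with candesartan. In bulk tissue, fewer cells of a type and less RNA per cell cannot be told apart.

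Each library carries the injury genes at a level of its own. The mean log2 CPM over the 152 genes was 2.72, 2.62, 2.36 and 2.25 in TBI + VH replicates 1 to 4 and 2.54, 2.52, 2.69 and 2.38 in TBI + CD. The TBI + CD range lay inside the TBI + VH range, and every injured library lay above the sham libraries, which spanned 1.61 to 1.82 (a gap that the choice of genes fixes). The 3 injured libraries lowest in habenula and choroid plexus genes were also the 3 lowest here, and the part of those tissues in these levels was not tested. Candesartan-treated mice had the higher value for 89 of the 152 genes (58.6%), beside 49.5% of all genes tested. In sham mice 112 of the 152 (73.7%) were higher with candesartan, beside 49.5% of all genes. The candesartan difference was smaller in injured than in sham mice for 107 of the 152 (70.4%), beside 50.8% of all genes, and these genes move together, so the counts are descriptions. The interaction of drug and injury called 0 of 16762 genes (0%) in edgeR and 0 in DESeq2, with 386 at an unadjusted edgeR p under 0.05. Without TBI + VH replicate 4 that count was 668, with 0 called and a smallest FDR of 0.5812, and with the choroid plexus level as a covariate it was 645.

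At an unadjusted edgeR p under 0.05, 5 of the 152 injury genes (3.29%) differed between the injured groups, beside 2.05% of all genes. Of the 152, only Fermt3 had groups that did not overlap, beside 0.68% of all genes higher and 0.716% lower. Fermt3, an integrin activator of blood and microglial cells, had 0.39 (SE 0.15), at 5.21, 4.59, 4.43 and 4.17 CPM in TBI + VH and 5.68, 6.44, 5.83 and 6.16 in TBI + CD. The kinase gene Syk, which transmits signals of immune receptors, had 0.31 (SE 0.13). Fam111a and Lgals3bp had 0.37 (SE 0.15) and 0.27 (SE 0.12). The fifth, S100a6, a calcium-binding protein gene of reactive astrocytes, was lower, at 8.45, 7.54, 5.24 and 5.52 CPM in TBI + VH and 5.21, 4.402, 5.39 and 4.63 in TBI + CD, with -0.44 (SE 0.15). None passed the FDR threshold.

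Microglia were nearly level between the groups. The 13 homeostatic microglia genes, of which 12 are injury genes, had a median fold change of -0.021, members between -0.062 and 0.10, and all 13 intervals within -0.5 to 0.5. Cx3cr1, the fractalkine receptor, and P2ry12, the purinergic receptor, had -0.041 (SE 0.079) and -0.055 (SE 0.11), and Csf1r, the receptor for the growth factor of these cells, had -0.021 (SE 0.071). The list's level was 5.09, 4.95, 4.81 and 4.62 mean log2 CPM in TBI + VH and 4.84, 4.89, 5.03 and 4.72 in TBI + CD. The groups overlapped throughout, and the 3 lowest libraries were those lowest in habenula and choroid plexus genes.

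Of 26 genes of activated microglia and phagocytosis, 24 were tested, 14 of them injury genes, and the median fold change was 0.039 with 0 at an unadjusted edgeR p under 0.05. Ctsd, a lysosomal protease gene, had 0.055 (SE 0.090), Grn, progranulin, 0.038 (SE 0.094) and Apoe 0.044 (SE 0.085). Gpnmb, a glycoprotein of lipid-laden phagocytes, was uneven between libraries, at 4.08, 1.95, 0.849 and 0.801 CPM in TBI + VH and 3.22, 2.42, 3.75 and 1.16 in TBI + CD. Its fold change was 0.48 (SE 0.45), and 1.13 without TBI + VH replicate 1, the highest of that group. Lyz2, the lysozyme of myeloid cells, had 0.0039 (SE 0.18).

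Of the complement genes 18 were tested, 7 of them injury genes, with a median of 0.045 and 0 at an unadjusted edgeR p under 0.05. C4b, the complement factor that rose most with injury, by 1.81 on the log2 scale, stood at 83.6, 86.9, 38.4 and 45.2 CPM in TBI + VH and at 97.2, 58.99, 71 and 43.9 in TBI + CD. Its rise from sham was 1.80 with vehicle and 1.82 with candesartan, and the groups of injured mice overlapped over most of their range (0.093, SE 0.25). The subunits of C1q, which start the classical cascade, had 0.18 (SE 0.11) for C1qa, 0.15 (SE 0.13) for C1qb and 0.020 (SE 0.13) for C1qc.

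Reactive astrocyte genes varied between libraries of the same group. Gfap, the astrocytic intermediate filament, stood at 476, 438, 158 and 189 CPM in TBI + VH and at 362, 288, 388 and 179.7 in TBI + CD. Vim, vimentin, stood at 69.4, 64.3, 22.7 and 24.2 CPM and 39.3, 46.6, 50.7 and 22.7 CPM, and Serpina3n, a protease inhibitor of reactive astrocytes, at 94.03, 123, 24.3 and 36.4 CPM and 67.8, 46.1, 75.4 and 29.1 CPM. In all 3, TBI + VH split into 2 high and 2 low libraries and TBI + CD fell within or close to that span. For Gfap and for the list's mean level, the 3 lowest of the 8 libraries were TBI + VH replicates 3 and 4 and TBI + CD replicate 4, which were also lowest in habenula and choroid plexus genes. With the habenula or the choroid plexus level as a covariate, the fold change of Vim was -0.26 or -0.15. The fold changes were -0.051 (SE 0.30), -0.18 (SE 0.32) and -0.35 (SE 0.38). Over the 17 tested of 20 genes the median was -0.051, with 1 higher and 1 lower at an unadjusted edgeR p under 0.05, beside 1% and 1.05% of all genes. The higher one was Lcn2, lipocalin 2, at 0.376, 0.439, 0.332 and 0 CPM in TBI + VH and 1.99, 0.698, 0.129 and 3.38 in TBI + CD, and the lower one S100a6.

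Homeostatic astrocyte genes had a median of 0.037 over 14 genes, all 14 intervals within -0.5 to 0.5. At an unadjusted edgeR p under 0.05, 2 of the 14 were higher, beside 1% of all genes, namely Aldh1l1, the folate enzyme that marks astrocytes (0.16, SE 0.072), and the growth factor receptor gene Fgfr3 (0.11, SE 0.051). The groups did not overlap for Fgfr3 (as for 0.68% of all genes in that direction), at 180.3, 179.7, 158 and 176 CPM and 181, 183, 191 and 195 CPM. Slc1a2, the main glutamate transporter of these cells, had 0.013 (SE 0.066).

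Cell cycle genes, 8 of 23 tested being injury genes, had a median of 0.020 and 0 at an unadjusted edgeR p under 0.05. Top2a, the topoisomerase of dividing cells, stood at 2.39, 3.79, 3.25 and 1.94 CPM in TBI + VH and 1.87, 3.11, 3.28 and 1.76 in TBI + CD, and Mki67, the proliferation marker, had -0.10 (SE 0.27). Atf3, a transcription factor induced in stressed neurons, stood at 4.93, 4.91, 1.403 and 1.14 CPM and 2.87, 2.74, 8.33 and 0.648 CPM, with the highest and the lowest value both in TBI + CD (0.26, SE 0.54).

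Interferon-response genes lay mostly above 0, as did several other lists. Of 21 tested, 18 had a positive fold change, beside 49.5% of all genes, and the median was 0.17 beside -0.00090. Members of a list can move together, so such counts here and for the lists below are descriptions. At an unadjusted edgeR p under 0.05, 3 were higher and 0 lower, beside 1% and 1.05% of all genes. Irf7 (chr7:141262706-141266481), the transcription factor that amplifies the interferon response, stood at 2.21, 1.596, 1.66 and 1.35 CPM in TBI + VH and at 3.34, 2.31, 3.06 and 2.27 in TBI + CD. The groups did not overlap, and the fold change was 0.69 (SE 0.21, 95% interval 0.24 to 1.14). In sham mice Irf7 stood at 1.31, 1.45, 1.19 and 1.301 CPM with vehicle and 2.22, 1.39, 2.12 and 1.19 with candesartan, and the candesartan difference in injured mice exceeded that in sham mice by 0.28 (SE 0.30).

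The other 2 were Oasl2, an oligoadenylate synthetase-like antiviral gene (0.38, SE 0.17), and Rtp4, a chaperone gene induced by interferon (0.56, SE 0.23). Stat2, which carries the interferon signal to the nucleus and is among the most abundant members, had -0.023 (SE 0.078). Ifit2 and Irf9 had -0.11 (SE 0.10) and 0.11 (SE 0.082). By library the list's level was 2.12, 1.701, 1.63 and 1.58 mean log2 CPM in TBI + VH and 2.17, 1.77, 2.21 and 1.71 in TBI + CD. The TBI + VH library with the highest value lay above 2 of the TBI + CD libraries, so the list's levels overlapped. Antigen presentation genes had a median of 0.14 over 13 tested, with 10 positive beside 49.5% of all genes and 0 at an unadjusted edgeR p under 0.05. Of these, B2m had 0.075 (SE 0.10), and H2-K1 and H2-D1, the class I heavy chains, 0.17 (SE 0.12) and 0.088 (SE 0.095).

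**Figure D5:**
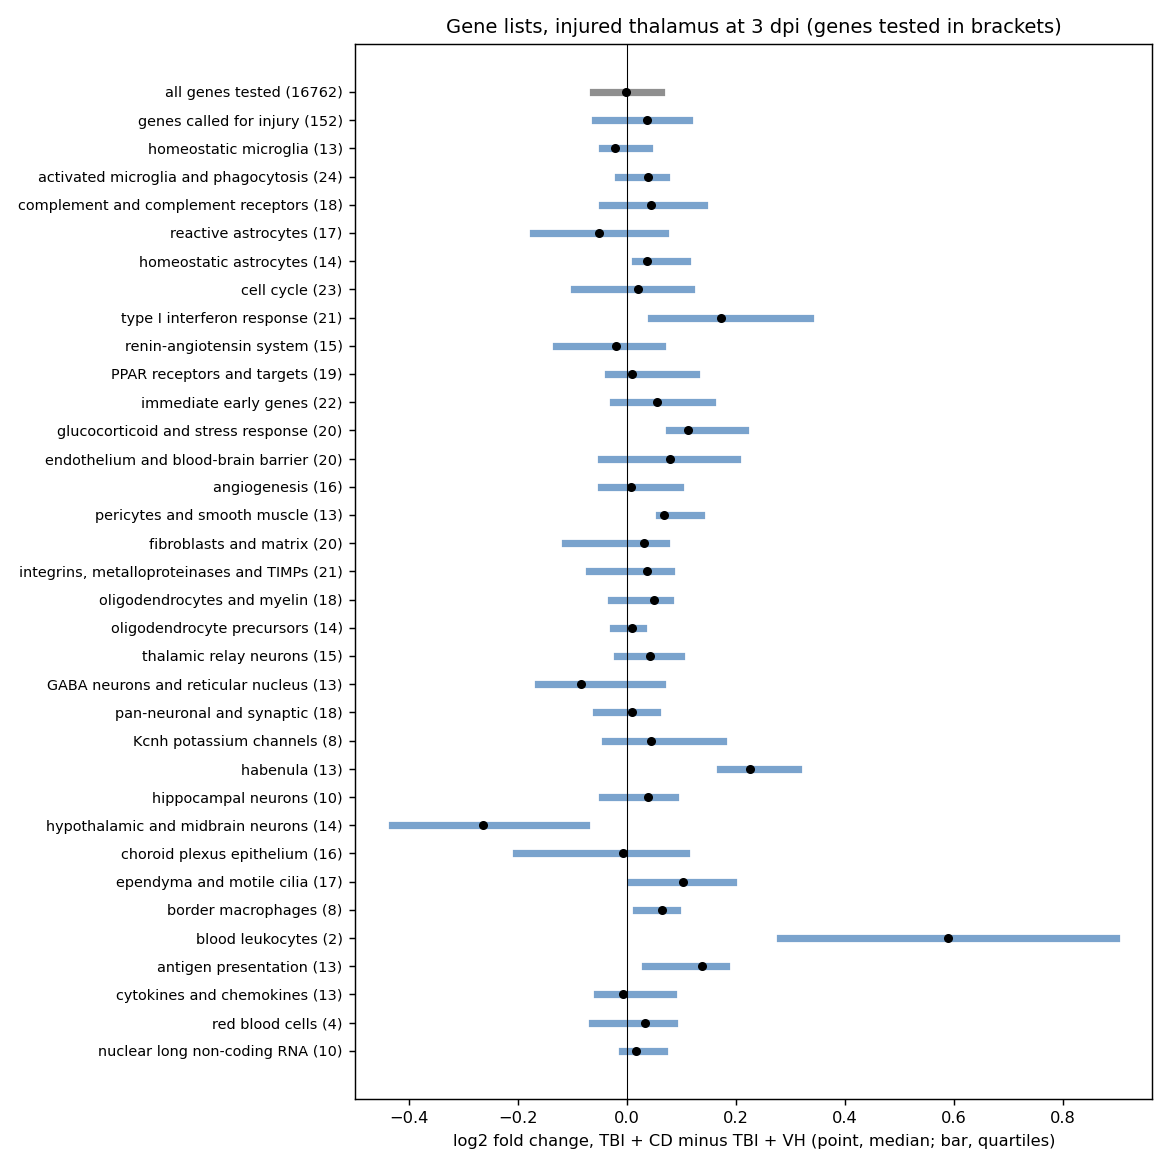
For each gene list, the median log2 fold change of TBI + CD over TBI + VH over its tested members (point) and the quartiles (bar), below those of all genes tested in grey. The interferon list has its median at 0.17, and the habenula list at 0.23 with a median SE of 0.70 for its members.

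Glucocorticoid and stress genes also lay mostly above 0, with 17 of 20 positive beside 49.5% of all genes and a median of 0.11. Sgk1, a kinase induced by corticosteroids, stood at 134, 98.2, 93.7 and 121 CPM in TBI + VH and at 165, 131, 177 and 108 in TBI + CD, with 0.38 (SE 0.22) and overlapping groups. The list's level was 4.61, 4.72, 4.38 and 4.44 mean log2 CPM in TBI + VH and 4.67, 4.704, 4.84 and 4.44 in TBI + CD, lowest in the 3 libraries that were also lowest in habenula and choroid plexus genes, and the part of those tissues was not tested. Per1, Mt1 and Hmox1, the clock, metallothionein and heme oxygenase genes, had 0.16 (SE 0.10), 0.11 (SE 0.17) and 0.20 (SE 0.13). Of the 3 members below 0, Hspa1b (chr17:34956436-34959238), which encodes the inducible heat shock protein 70, was the 1 with an unadjusted edgeR p under 0.05, beside 1.05% of all genes, at 2.77, 1.99, 2.07 and 2.61 CPM in TBI + VH and 1.46, 1.396, 1.55 and 1.85 in TBI + CD. All TBI + CD libraries were lower, as for 0.716% of all genes, by 0.58 on the log2 scale (SE 0.17, 95% interval -0.95 to -0.21). Hspa1b has a near-identical neighbour, Hspa1a, at -0.051 (SE 0.16), and the assignment of reads between the copies was not tested.

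Immediate early genes had a median of 0.055 over 22 tested of 24. Egr1, a transcription factor of recent neuronal activity, had 0.20 (SE 0.14), and Jun 0.061 (SE 0.089). Klf4 was the 1 member with an unadjusted edgeR p under 0.05, beside 2.05% of all genes, at 2.86, 2.15, 1.48 and 2.02 CPM in TBI + VH and 3.16, 2.36, 2.81 and 3.75 in TBI + CD (0.51, SE 0.20), and its groups overlapped.

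The vascular and matrix lists are given by their median log2 fold changes. The endothelial list had a median of 0.080 with all 20 intervals within -1 to 1, and Slc2a1, the glucose transporter of the barrier, and Cldn5, its tight junction claudin, had 0.15 (SE 0.11) and -0.035 (SE 0.18). The angiogenesis list had a median of 0.0078 over 16 genes, with Vegfa at 0.0065 (SE 0.061). The apelin receptor gene Aplnr was its 1 member lower at an unadjusted edgeR p under 0.05, beside 1.05% of all genes, at 0.704, 0.558, 0.369 and 0.253 CPM in TBI + VH and 0.117, 0.215, 0.345 and 0.0926 in TBI + CD. Pericyte and smooth muscle genes had a median of 0.069 over 13, with 11 of them positive beside 49.5% of all genes, and the contractile gene Cnn1 was the 1 higher at that p, beside 1% of all genes (1.03, SE 0.49). By library the list's level was 3.19, 2.55, 2.61 and 2.56 in TBI + VH and 3.05, 2.73, 2.82 and 2.897 in TBI + CD. TBI + VH replicate 1 was the highest of the 8 and the other TBI + VH libraries the lowest, so the groups overlapped.

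Integrins, metalloproteinases and their inhibitors had a median of 0.036, with all 21 members between -0.18 and 0.11 and 0 at an unadjusted edgeR p under 0.05. Fibroblast and matrix genes had a median of 0.032 over 20. Ogn, osteoglycin of the meninges, had lower values in TBI + CD in groups that did not overlap, as had 0.716% of all genes, while its unadjusted edgeR p was above 0.05, at 2.63, 3.67, 3.17 and 2.32 CPM in TBI + VH and 1.82, 2.201, 2.03 and 1.67 in TBI + CD (-0.61, SE 0.32). Of 17 blood leukocyte genes only 2 passed the filter, Lck and S100a9. S100a9, a neutrophil gene, stood at 0.188, 0.239, 0.258 and 0.421 CPM and 0.937, 0.805, 0.173 and 0.741 CPM.

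Neuronal and oligodendrocyte lists also had medians near 0. The pan-neuronal and synaptic list had a median of 0.0099, all 18 intervals within -1 to 1 and 15 within -0.5 to 0.5, and Snap25 and Syt1 of the synaptic release machinery had 0.021 (SE 0.076) and -0.030 (SE 0.078). The thalamic relay list had a median of 0.042 over 15 tested of 16, and the list of GABA neurons, which in the thalamus mark mainly the reticular nucleus, -0.084 over 13 with a median SE of 0.28. The myelin list had 0.050 over 18, with Mbp, myelin basic protein, at 0.17 (SE 0.17). The precursor list had 0.010 over 14. Each of these 5 lists had 0 members at an unadjusted edgeR p under 0.05.

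Kcnh7, an erg-type potassium channel gene, stood at 6.62, 6.54, 10.8 and 5.18 CPM in TBI + VH and at 3.92, 6.49, 6.95 and 6.57 in TBI + CD. Its fold change of -0.28 (SE 0.26) became -0.023 without TBI + VH replicate 3 and -0.14 without TBI + CD replicate 1. The 8 Kcnh channel genes had a median of 0.044. Malat1, a nuclear long non-coding RNA, stood at 433, 425, 529 and 419 CPM and 610.2, 504, 584 and 423 CPM (0.23, SE 0.11), with overlapping groups.

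Lists of neighbouring tissue had wide spreads. The habenula list had a median of 0.23 over 13 genes with a median SE of 0.70, the hypothalamic and midbrain list -0.26 over 14 with 0.69, and the choroid plexus list -0.0075 over 16 with 0.94. Ttr, transthyretin of the choroid plexus, stood at 37.2, 35.1, 10.9 and 11.2 CPM in TBI + VH and 50.4, 20.02, 24.3 and 7.08 in TBI + CD. With the habenula level of each library as a covariate edgeR called 0 genes and gave 338 at an unadjusted p under 0.05, and with the choroid plexus level 0 and 440. Ependymal genes had a median of 0.10 over 17, hippocampal neuron genes 0.039 over 10, border macrophage genes 0.064 over 8, cytokine and chemokine genes -0.0082 over 13, red cell genes 0.034 over 4 and nuclear long non-coding RNAs 0.017 over 10.

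In edgeR, the only tool run there, the same contrast in the other regions and at the later time called 0 genes as well, with 353 to 893 at an unadjusted p under 0.05. The hippocampus at 29 dpi had the largest share at that p, 5.31%, and the smallest FDR, 0.076. From its own direct comparison in the hippocampus, the study reports only Kcnh7 as differentially expressed. The difference between thalamus and hippocampus in the candesartan effect at 3 dpi, tested over 48 libraries, called 0 of 17788 genes (0%) in edgeR and 0 in DESeq2, with 430 at an unadjusted p under 0.05, and that between thalamus and hypothalamus 0 (0%) in both tools, with 402. Without TBI + VH replicate 1 of the thalamus these counts were 656 and 797, with 0 called in either. Mex3d had -0.34 in the thalamus, -0.083 (SE 0.10) in the hippocampus and -0.030 (SE 0.085) in the hypothalamus. Irf7 had 0.69, 0.48 (SE 0.36) and -0.085 (SE 0.26), and Hspa1b -0.58, 0.067 and 0.057. Mex3d and Hspa1b were named for their thalamic values, so values nearer 0 elsewhere are likely from that choice alone. None of these regional differences passed the FDR threshold.

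The thalamus libraries at 29 dpi came from other mice on another dosing schedule. Those mice had an injection and then a surgically implanted osmotic pump. There, most genes with the smallest p at 3 dpi had values closer to 0. They were chosen on the 3 dpi values, so values closer to 0 at another time are likely from that choice alone. Ggnbp2 had -0.028 (SE 0.055) beside -0.17 at 3 dpi, DQ726833 -0.038 (SE 0.095) beside 0.53, and Arhgap22 0.041 (SE 0.10) beside 0.25. Of the others lower at 3 dpi, Lcmt2 had -0.089 (SE 0.10) and AK046664 -0.15 (SE 0.15), while Tpgs1, Ripply2 and AK045681 were positive at 0.086, 0.12 and 0.10. Lypd6 had -0.30 (SE 0.11) beside -0.31 at 3 dpi, and H2-Q4 0.52 (SE 0.22) beside 0.61. Sgk1 had 0.79 (SE 0.23) beside 0.38, Gpnmb 2.22 (SE 0.69) beside 0.48, and Malat1 -0.50 (SE 0.091) beside 0.23. Mex3d and Irf7 had -0.20 (SE 0.11) and 0.13 (SE 0.24). No gene was called at that time either, with 2.24% of 16957 genes at an unadjusted edgeR p under 0.05, and the difference between the time points was not tested.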

How the data were processed

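Per the labels and the study's methods, polyadenylated RNA was sequenced, reads were mapped to mm10, and the authors deposited gene counts made with HTSeq 0.9.1; the study's own testing used DESeq2 1.16.1. The annotation, strand setting and rule for reads that fit several genes are not given in the sources used here. The table of raw counts holds 32594 gene symbols, and 23032 matched GENCODE vM21 (GRCm38, the same assembly as mm10), from which coordinates were taken.

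Total counts of the 8 libraries ran from 17440742 to 27166527. The 16 thalamus libraries at 3 dpi were fitted together in R 4.3.3 with edgeR 4.0.16: filterByExpr on the groups, TMM factors, quasi-likelihood F tests (2-sided) and Benjamini-Hochberg adjustment over the genes tested. Calls needed both an FDR below 0.05 and a fold change beyond 0.32 on the log2 scale in either direction, as in the study. SEs and 95% intervals were derived from the fold change and its F statistic. CPM were computed from the counts with TMM-scaled totals, and list levels are means of log2 CPM with a prior count of 2. Regional differences came from 1 fit of the 48 libraries at 3 dpi, with regions treated as independent since the labels do not tie libraries to mice. Library totals were compared by an exact permutation test over 70 divisions. The value of 3 counts, given for a gene without counts, covers counting error only.

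Named genes were the 8 with the smallest p in each direction at a mean of at least 1 CPM, the 4 most abundant members of each of 33 lists (555 genes, 502 tested), cell type markers and 18 genes listed singly in the rule. A few of the genes it names are not reported here. Members and lists were chosen with earlier results of these data known. Of the genes named, S100a6, Lcn2, Aldh1l1, Fgfr3, Oasl2, Rtp4, Nln, Klf4, Hspa1b, Hspa1a, Aplnr, Cnn1, Ogn, S100a9, Fermt3, Syk, Fam111a, Lgals3bp, Top2a, Mki67, Atf3, Slc6a3, Tuba1c, Tuba1b, Xlr4a and 0610010B08Rik, and in the closing section Avp, Pomc, Eif2s3y, Gpr84, Pbk, Mir6236 and Rmrp, were picked after their values were seen.

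Alternatives were DESeq2 1.42.0, RLE factors, no filter on low counts, FDR alone, the replicate number as a block, the choroid plexus or habenula level as a covariate, only the 8 libraries compared, each injured library left out in turn, and, chosen after seeing the data, TBI + CD replicates 1 and 2 left out together. The edgeR procedure was tested on simulated data with known changes. Columns of every sample were used as labelled.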

Additional observations from a re-analysis of the deposited data

Results flagged for a closer look

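In groups of 4 libraries a value was marked when its gap to the nearest of the others, divided by the group's range, exceeded Dixon's critical value. Of 214 groups examined 25 (11.7%) were marked, where chance marks about 5%, and some of the genes were named because they stood apart. The causes were not tested.

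TBI + CD replicate 1 held the highest value of its group for 9 genes: Rn45s at 26001 CPM (2.54% of counts), Lars2 at 2141, Mir6236 at 620.81, AK144265 at 343.12, AK155692 at 24.1, Rpph1 at 15.9, Rmrp at 6.79, Pomc at 6.85 and Gpr84 at 1.82. The same library was lowest for the potassium channel gene Kcnh7, at 3.92 CPM, and for the mitotic kinase gene Pbk, at 0.469 CPM.

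TBI + CD replicate 4 was lowest in the habenula list, at 2.32 mean log2 CPM, in the hippocampal neuron list, at 2.49, and for Oasl2, at 3.61 CPM. It was highest for DQ726833, at 8.84 CPM. TBI + CD replicate 3 was lowest in the blood leukocyte list, at -0.584 mean log2 CPM over 2 genes, and the highest of its group for 0610010B08Rik, at 14.6 CPM.

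TBI + CD replicate 2 held 13.5 CPM of the Y-linked gene Eif2s3y, whereas the other 7 injured libraries lay between 28.7 and 35.4 CPM. Sham + CD replicate 2 held 13.8 CPM, while the other 7 sham libraries lay between 31.5 and 40.9 CPM, and 90 of all 96 libraries, on unscaled totals, held at least 20 CPM. The mice are described as male, and why these libraries were low was not tested.

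In TBI + VH, replicate 4 was highest for the vasopressin gene Avp, at 52.3 CPM, for Mas1, at 0.464, and for AK155692, at 2.44. Replicate 3 was highest for Malat1, at 528.7 CPM, replicate 2 for Pomc, at 2.75 CPM, and replicate 1 in the pericyte and smooth muscle list, at 3.19 mean log2 CPM.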

How the results depend on the processing

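The comparison of TBI + CD with TBI + VH called 0 genes under all 17 alternatives, DESeq2 included. The number at an unadjusted edgeR p under 0.05, 344 as reported, was 348 with RLE factors. It was 455 of 23737 genes without the filter on low counts and 235 of 16298 with only the 8 libraries. Leaving out each injured library in turn gave 281 to 988, with 0 calls each time; without TBI + VH replicate 1 it was 988 and the smallest FDR 0.7812, and without both TBI + CD libraries rich in Rn45s it was 370. The interaction called 0 genes under each alternative, with 298 to 668 at an unadjusted p under 0.05, as did both regional differences, with 350 to 797. With the replicate number as a block, 0 genes were called and 538 had an unadjusted p under 0.05. The correlations of same-numbered libraries' deviations were 0.108, 0.334, -0.128 and 0.558, so the numbers were not taken as pairs. The 152 injury genes became 159 with the block, 203 with DESeq2 (193 up, 10 down), 204 with the habenula level as a covariate, 112 to 163 with 1 library left out and 96 without TBI + CD replicates 1 and 2, where fewer libraries entered the fit. Of 1098 fold changes of named genes under alternatives, 1071 stayed within 1 SE of the reported value and 27, of 17 genes, moved further, among them Rn45s, Lars2 and AK144265, whose sign turned without TBI + CD replicates 1 and 2 (-0.020, -0.031 and -0.17). None of these genes was called under any alternative. With 4 libraries per group, a 2-sided exact permutation test cannot go below 0.0286. Genes under about 1 CPM, Agtr1a and Agtr1b among them, rest on few counts. Differences smaller than a gene's interval were not detectable with these libraries.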
